A study of Mus musculus with 375 samples.

Results

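Single cardiomyocytes of CD8+ T cell-depleted mice were compared with those of wild-type (WT) mice after pressure overload, gene by gene, for the share of cells in which a gene was read and for the level in the median cell. The members were all cells whose name places them in CD8-depleted set 1 or 2 or in WT set 1 or 2 and that had at least 3000 genes with a read. There were 232 such cells among the 375 cells of the series, of which 320 passed the same filter over all 6 sets. CD8-depleted sets 1 and 2 gave 62 and 49 cells of 74 and 62 collected, against 59 and 62 cells of 65 and 63 collected in WT sets 1 and 2.

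All mice were C57BL/6N and had transverse aortic constriction (TAC), a suture around the aortic arch that makes the left ventricle pump against a raised pressure. The CD8+ T cell-depleted mice received repeated intraperitoneal injections of an anti-CD8 antibody from the day of surgery, and vehicle (phosphate-buffered saline) was the control of the study's depletion experiments, though the sources used here do not say whether the sequenced WT mice received it. Rod-shaped cells were picked by pipette from the enzymatically dissociated left ventricle 2 weeks after TAC and made into Smart-seq2 libraries, a full-length method without molecular identifiers. The study's methods name 2 mice per group for single cells, but no label ties a set to a mouse. The set was therefore the replicate (n = 2 sets per group). P-values measure only the spread between sets, which the tests pooled in part or in full over genes. With 2 sets against 2, an exact two-sided permutation test of a single value cannot go below p = 0.333.

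The overloaded ventricle enlarges its muscle cells and returns to genes of the fetal heart. Nppa and Nppb encode the atrial and brain natriuretic peptides, hormones that lower blood volume and pressure, and Myh7 encodes the slow β-myosin heavy chain, which in the adult mouse ventricle is largely replaced by the α-chain of Myh6. Ces1d encodes a carboxylesterase that hydrolyses stored lipid esters, and an adult cardiomyocyte draws most of its energy from fatty acids. CD8+ T cells are cytotoxic lymphocytes that enter the overloaded heart.

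Nppa, Nppb and Myh7 carried much of what follows, so their promoters are shown from 250 bases before to 50 bases after the RefSeq start (GRCm38.p6, the mm10 build that the labels name). Capitals mark the 6-base motifs CATTCC (bound by TEAD factors), AGATAA (bound by GATA factors) and TATAAA (the TATA box), searched on both strands, with GGAATG the reverse complement of CATTCC. The Nppa window lay at chr4:148000472-148000771 (+), the Nppb window at chr4:147985650-147985949 (+) and the Myh7 window at chr14:54994577-54994876 (-), each printed 5′ to 3′ on the strand of its gene. The RefSeq start of Nppb lay 112 bases from the gene start of the count table, and those of Nppa and Myh7 were the same in both.
Nppa: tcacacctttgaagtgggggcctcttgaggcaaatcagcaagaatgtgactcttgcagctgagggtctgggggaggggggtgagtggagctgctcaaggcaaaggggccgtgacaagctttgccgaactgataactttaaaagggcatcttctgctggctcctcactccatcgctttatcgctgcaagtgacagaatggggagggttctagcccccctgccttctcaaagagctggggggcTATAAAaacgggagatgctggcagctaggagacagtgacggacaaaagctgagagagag
Nppb: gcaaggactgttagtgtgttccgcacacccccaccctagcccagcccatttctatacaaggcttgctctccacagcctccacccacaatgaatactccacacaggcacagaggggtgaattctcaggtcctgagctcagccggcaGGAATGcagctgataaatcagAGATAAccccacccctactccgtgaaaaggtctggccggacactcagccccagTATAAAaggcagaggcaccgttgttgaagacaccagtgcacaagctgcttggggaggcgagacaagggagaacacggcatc
Myh7: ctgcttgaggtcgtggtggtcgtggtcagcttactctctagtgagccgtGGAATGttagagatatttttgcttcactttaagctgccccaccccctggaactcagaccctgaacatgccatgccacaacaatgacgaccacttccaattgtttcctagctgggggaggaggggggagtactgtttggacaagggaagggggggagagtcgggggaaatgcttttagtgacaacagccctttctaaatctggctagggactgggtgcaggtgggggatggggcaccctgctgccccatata
One of 3 motifs occurred in the Nppa window (TATAAA), all 3 occurred in the Nppb window and 1 in the Myh7 window (CATTCC, on the reverse strand). Over all 32851 promoters of the same length, 14.7% held CATTCC, 11.2% held AGATAA and 13.6% held TATAAA on either strand. A match describes the letters of the window and is not a measured binding site. Of the 4 genes looked up, 3 were matched, and Ces1d had no entry.

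Before sequencing, cells were accepted by quantitative PCR of Tnnt2, the cardiac troponin T gene, at a threshold cycle of 25, with the primers below, shown because this gate fixes the share of cells with Tnnt2.
Tnnt2 forward: tcctggcagagaggaggaag
Tnnt2 reverse: tgcaggtcgaacttctcagc
Every cell of all 4 sets had a Tnnt2 read, with medians of 15886 and 13964 CPM (the count scaled to the nuclear counts of the cell) in the CD8-depleted sets, against 7815 and 9565 CPM in the WT sets. The cells matched their label, since 14 of 17 ventricular cardiomyocyte markers, Myh6, Tnni3, Myl2 and Ryr2 among them, were read in every cell of every set. Lymphocyte markers summed to 9.55 and 5.85 CPM in the CD8-depleted sets, against 1.69 and 1.27 CPM in the WT sets, with Cd247, Cd79a and Gzmb at 0 in all sets. At least 1 of 16 was read in 14.04% and 19.6% of CD8-depleted cells, against 5.08% and 4.84% of WT cells. Cd3e, Cd3d, Cd3g, Cd4 and Cd8a had counts in the CD8-depleted sets only, at 13 or fewer per set. Cd2, Lck, Cd79b and Ms4a1 had counts in the WT sets only. Nkg7 had the most counts in CD8-depleted set 1, at 37, and 0 in the others. Macrophage markers summed to 22.2 and 29.4 CPM in the CD8-depleted sets, against 25.6 and 5.89 CPM in the WT sets, with Adgre1, Lyz1 and Ly6c2 at 0 in all sets. Markers of vessel cells differed in how widely they were read. At least 1 of 14 endothelial markers was read in 91.2% and 93.5% of CD8-depleted cells, against 59.3% and 82.3% of WT cells. Fabp4 alone was read in 75.4% and 82.6% against 50.8% and 64.5%, and Pecam1 in 14.04% and 32.6% against 23.7% and 8.06%. For at least 1 of 12 smooth muscle and pericyte markers the shares were 96.5% and 97.8% against 98.3% and 95.2%. Abcc9 alone was read in 70.2% and 71.7% against 91.5% and 85.5%, and Myh11 in 0% and 2.17% against 3.39% and 0%. These shares rested largely on a few markers, and the part of vessel cells' RNA in them was not tested.

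The sets differed in depth. Counts from nuclear genes had a median per cell of 96256 and 98953 in the CD8-depleted sets, against 413070 and 242700 in the WT sets. Mitochondrially encoded genes, which were left out of every level, held a median of 94.0% and 90.8% of all counts in the CD8-depleted sets, against 77.3% and 85.3% in the WT sets. A gene is found more easily in a deeper cell, so each cell was thinned at random to 50000 nuclear counts before its genes were scored as read or not, and 5 and 3 CD8-depleted cells too shallow for this were left out, leaving 57 and 46 CD8-depleted cells and 59 and 62 WT cells. At that equal depth a cell had a median of 3809 and 3651 genes with a read in the CD8-depleted sets, against 4034 and 3464 in the WT sets, and these values overlapped between groups. The part of the mitochondrial share in the results was not tested, beyond the values given for cells with 85 to 95% mitochondrial counts, of which there were 35 and 35 in the CD8-depleted sets, against 16 and 30 in the WT sets. One WT set 2 cell stood apart, with 92.9% of its nuclear counts on satellite repeat genes, a mitochondrial share of 39.7% and 1752 genes after thinning. No 2 cells of these sets had identical counts, and the highest correlation between 2 cells was 0.81.

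**Figure D1:**
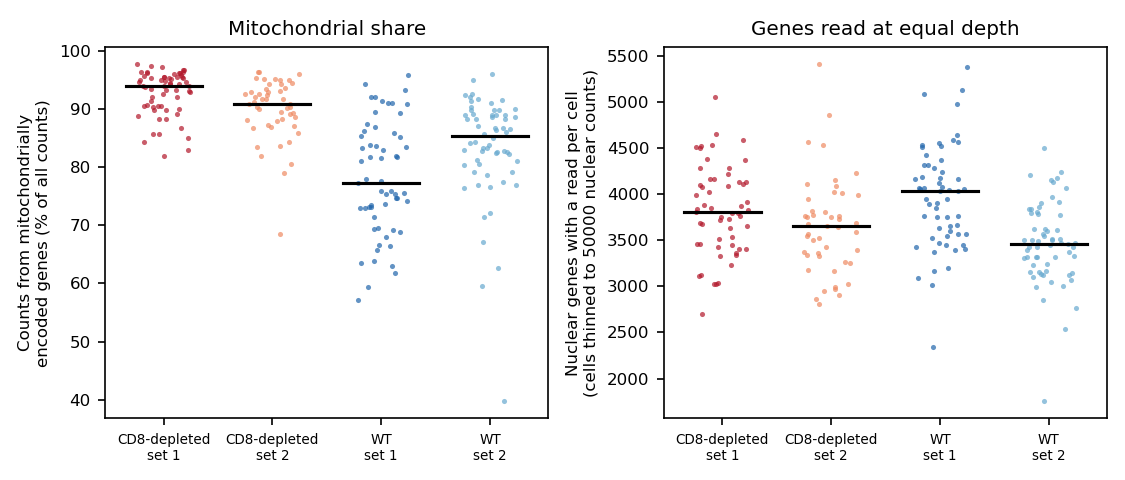
Each point is 1 cell that passed, with CD8-depleted sets 1 and 2 left of WT sets 1 and 2 and a black line at the median. The left axis gives counts from mitochondrially encoded genes as a percent of all counts, where the medians were 94.0% and 90.8% in the CD8-depleted sets against 77.3% and 85.3% in the WT sets, and the right axis gives the nuclear genes with a read per cell thinned to 50000 counts, where the groups overlapped.

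Across the transcriptome the share of cells with a read was not shifted to one side. Of 9506 genes whose mean share over the 4 sets was at least 5%, 4659 had a higher mean share in CD8-depleted cells, 4640 a lower one and 207 an equal one, and the median difference was 0.00 percentage points. Genes read in every cell numbered 444 and 387 in the CD8-depleted sets, against 396 and 293 in the WT sets, of which 207 were shared by all 4 sets. Genes read in at least 1 in 2 cells (a share of 50%) numbered 2985 and 2728 in the CD8-depleted sets, against 3195 and 2679 in the WT sets. Both CD8-depleted sets lay above both WT sets for 2076 genes (21.8% of those tested) and below both for 1647 genes (17.3%). These 2 percentages are the background for each list of genes that follows, but the background varied with the share. It was 11.1% above and 9.97% below among genes with a mean share of 95 to 100%. At 5 to 20% it was 22.3% and 15.1%. The filter took the mean of all 4 sets, so a gene rare in WT cells could enter through the CD8-depleted sets alone, and the reverse. A gap of at least 20 points between the closest sets of the groups separated 52 genes with higher and 9 genes with lower shares in CD8-depleted cells. There were 145 genes read in most cells of both CD8-depleted sets and in a minority in both WT sets, and 91 genes with the opposite pattern.

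**Figure D2:**
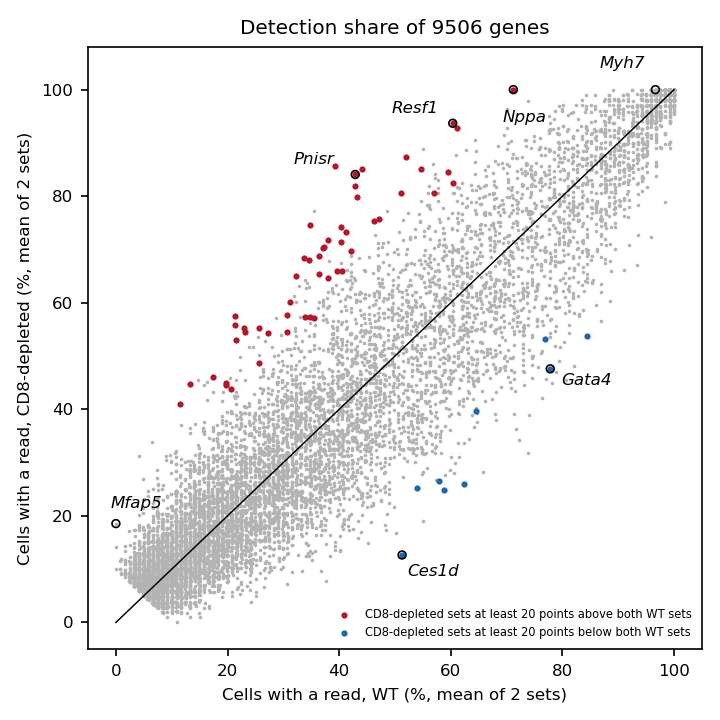
Each point is 1 of 9506 genes, placed by its mean share of cells with a read in the 2 CD8-depleted sets (vertical axis, %) and in the 2 WT sets (horizontal axis, %), with the line of equality. Red points mark the 52 genes with both CD8-depleted sets at least 20 points above both WT sets, blue points the 9 genes at least 20 points below, and most other genes lie along the line.

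Tested across all 9506 genes with limma on the arcsine-transformed share, 20 genes passed as higher (0.21% of those tested) and 7 as lower (0.0736%) in CD8-depleted cells at a Benjamini-Hochberg adjusted p under 0.05. All of these were genes read in nearly every cell. Among the 20 higher genes, 17 were read in all CD8-depleted cells and missed in exactly 1 cell of each WT set, and 17 lacked a read in the WT set 2 cell filled with satellite repeats. The widest differences of these calls belonged to Vegfa, the vascular growth factor, read in 100% and 100% of CD8-depleted cells against 91.5% and 93.5% of WT cells (adjusted p = 0.040), and to Prxl2b, a peroxiredoxin-like protein whose exons overlap those of Mmel1. Xirp1, a protein of the cell contacts between cardiomyocytes, had 100% and 100% against 96.6% and 96.8%. Of the 7 lower genes, 6 missed 1 cell in each CD8-depleted set and none in the WT sets. Vdac1, a channel of the outer mitochondrial membrane, had 98.2% and 97.8% against 100% and 100%. With the satellite cell left out, the same limma test passed 0 genes, though the lowest adjusted p was 0.050026 (651 genes at an unadjusted p under 0.05). The 7 lower genes each had a read in that cell. The test also passed 0 genes (434 at an unadjusted p under 0.05) where the spread of a gene was held at no less than its counting error.

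Genes at the ceiling have almost no spread between sets, and in simulated shares the test recovered none of 200 known changes. A second fit, chosen after seeing the data and that simulation, was therefore confined to the 8904 genes with a mean share of 5 to 95%. It passed 22 genes as higher (0.247%) and 11 as lower (0.124%) in CD8-depleted cells, none of them among the 27 above. In this fit the prior degrees of freedom were infinite. Each gene was thus judged by a spread pooled over genes and not by the spread of its own sets. The higher genes were led by Nppa (adjusted p = 0.000158) and the lower ones by Ces1d (adjusted p = 0.0097). Of the 33 genes, 32 had no overlap between the groups' sets. The exception was Fgr, a Src-family kinase of myeloid cells, with shares of 63.2% and 91.3% in the CD8-depleted sets, against 1.69% and 69.4% in the WT sets. The calls needed the other 3 sets more than WT set 2. Without WT set 2, 455 genes passed (94 higher, 361 lower), all 33 among them, while 4 of the 33 passed without CD8-depleted set 1, 1 without CD8-depleted set 2 and 2 without WT set 1. Centring every set on its own median share gave 38 higher (0.4%) and 28 lower (0.295%) genes over all 9506, and 2 higher and 1 lower gene over the 8904, namely Nppa, Mfap5 and Ces1d. No gene passed among the cells with 85 to 95% mitochondrial counts, where 663 had an unadjusted p under 0.05.

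Nppa was read in 57 of 57 and 46 of 46 cells in the CD8-depleted sets, against 45 of 59 and 41 of 62 cells in the WT sets. These are shares of 100% and 100% against 76.3% (exact 95% binomial interval 63.41 to 86.38%) and 66.1% (52.99 to 77.67%), and the groups did not overlap. Within the range of 85 to 95% mitochondrial counts the shares were 100% and 100% in CD8-depleted cells and 75% and 66.7% in WT cells. Without thinning, 88.1% and 95.2% of the deeper WT cells had a read. The groups were apart by level too, and the median cell had 949 and 2181 CPM in the CD8-depleted sets, against 145 and 35.7 CPM in the WT sets. Cells at 1000 CPM or more made up 50% and 75.5% of the CD8-depleted sets and 11.9% and 6.45% of the WT sets, and 4 and 9 CD8-depleted cells reached 10000 CPM, against 0 and 0 WT cells. Nppa varied strongly among CD8-depleted cells, with a range of 59.8 to 33466 CPM in set 1 and 254 to 51960 CPM in set 2. In the fit over all 9506 genes Nppa missed the threshold (limma adjusted p = 0.0787), and in the 5 to 95% fit it rose (arcsine difference 0.57, SE 0.10, adjusted p = 0.000158), though not without CD8-depleted set 2, where its difference stayed at 28.8 points. The cell with the most counts held 9.79% and 32.1% of the Nppa counts of the CD8-depleted sets and 10.9% and 30.8% of those of the WT sets. Summed over cells, Nppa rose by 3.76 on the log2 scale (SE 0.50, edgeR quasi-likelihood adjusted p = 0.0354), and by 3.02 to 4.26 with any 1 set left out, but it did not pass after thinning (adjusted p = 0.078), with cells of at least 5000 genes (0.11) or with both CD3e-/- sets in the fit (1). Within 85 to 95% mitochondrial counts the difference was 2.80 (adjusted p = 0.18). Nppa is also a marker of atrial cells. Of the 8 atrial markers, 4 reached the tested share, and 3 of these (Nppa, Myh7 and Myl7) lay above both WT sets and 0 below. Over all genes 21.8% lay above and 17.3% below. Nppa and Myh7 are themselves genes this comparison was chosen to describe, which leaves Myl7 as the only further marker above. Myl7 was read in 7.02% and 13.04% of CD8-depleted cells against 1.69% and 4.84% of WT cells, Myl4 in 3.51% and 13.04% against 1.69% and 1.61%, and Sln in 3.51% and 4.35% against 1.69% and 1.61%. Since Myl7 was under 5% in both WT sets, it reached the tested share through the CD8-depleted sets alone. The count of 3 markers above therefore carries no independent weight. Stard10 overlapped, at 12.3% and 28.3% against 25.4% and 25.8%, and Bmp10 was at 0 in all sets. The part of atrial RNA in the Nppa values was not tested.

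Myh7 was read in almost every cell of both groups, in 100% and 100% of CD8-depleted cells and 94.9% and 98.4% of WT cells, so the share carried little of the contrast. Without thinning every cell of all 4 sets had a read. The median level was 1045 and 962 CPM in the CD8-depleted sets, against 131 and 368 CPM in the WT sets, without overlap. The lowest CD8-depleted cells had 432 and 186 CPM and the lowest WT cells 9.77 and 22.0 CPM. Cells at 1000 CPM or more made up 53.2% and 46.9% of the CD8-depleted sets and 0% and 11.3% of the WT sets. The difference of the summed counts was 2.63 on the log2 scale (SE 0.51) and did not pass (edgeR adjusted p = 0.215). Over the other 16 settings it ranged between 2.05 and 3.70, with adjusted p between 9.35e-08 with no gene filter and 1 with both CD3e-/- sets in the fit. Within sets, the Spearman correlation of Myh7 with the mitochondrial share was 0.39 and 0.18 over 62 and 49 CD8-depleted cells and 0.11 and 0.49 over 59 and 62 WT cells. With nuclear counts per cell it was -0.42 and -0.24 in the CD8-depleted sets, against -0.12 and -0.37 in the WT sets. The 2 readings of a correlation come from the same library and depend on its depth. Nppa had correlations with the mitochondrial share of 0.04 and 0.36 in the CD8-depleted sets, against 0.18 and 0.09 in the WT sets.

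Nppb, the second natriuretic peptide gene, was read in 100% and 97.8% of CD8-depleted cells and 88.1% and 93.5% of WT cells. Its median level was 834 and 763 CPM in the CD8-depleted sets, against 428 and 277 CPM in the WT sets, a narrower separation than that of Nppa. Nppa and Myh7 both reached 1000 CPM in 16 of 62 and 17 of 49 CD8-depleted cells, against 0 of 59 and 0 of 62 WT cells. Within a set their levels had Spearman correlations of 0.12 and 0.23 in the CD8-depleted sets, against 0.14 and 0.15 in the WT sets.

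**Figure D3:**
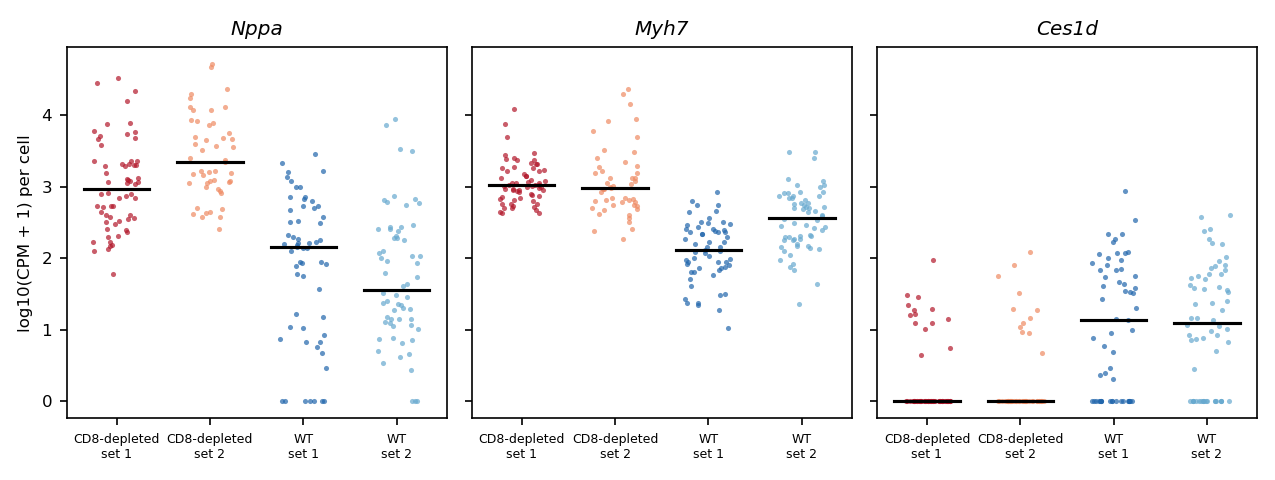
Each point is 1 cell that passed, plotted as log10(CPM + 1) of Nppa, Myh7 and Ces1d, with CD8-depleted sets 1 and 2 left of WT sets 1 and 2 and a black line at the median. No CD8-depleted cell is at 0 for Nppa, the lowest CD8-depleted cells have 432 and 186 CPM of Myh7, and the median of Ces1d is at 0 in both CD8-depleted sets and at 12.9 and 11.7 CPM in the WT sets.

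Ces1d showed the reverse pattern. It was read in 7 of 57 and 6 of 46 cells in the CD8-depleted sets and in 31 of 59 and 31 of 62 cells in the WT sets, which gives 12.3% and 13.04% against 52.5% and 50%. The sets of each group lay within 3 points of each other. The adjusted p was 0.28 in the limma fit over all 9506 genes, and Ces1d fell in the 5 to 95% fit (arcsine difference -0.43, SE 0.10, adjusted p = 0.0097). Without CD8-depleted set 1, CD8-depleted set 2 or WT set 1 it did not pass, at differences of -38.2, -38.99 and -37.3 points. Without thinning the shares were 22.6% and 24.5% in CD8-depleted cells and 66.1% and 69.4% in WT cells, and among cells with 85 to 95% mitochondrial counts they were 17.1% and 14.3% against 50% and 53.3%. The cells with a Ces1d read before thinning had medians of 15.4 and 15.7 CPM in the CD8-depleted sets, against 44.9 and 36.04 CPM in the WT sets. The highest cell had 92.2 and 119 CPM in the CD8-depleted sets, against 856 and 399 CPM in the WT sets. The summed counts differed by -3.70 on the log2 scale, which missed the threshold (edgeR adjusted p = 0.0532), and by -4.08 to -3.07 over the other 16 settings, where the adjusted p ranged between 1.28e-08 and 1.

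The other genes of the 5 to 95% fit had varied known roles. Among those that rose, Slc6a6, the taurine transporter, was read in 78.9% and 91.3% of CD8-depleted cells and 54.2% and 33.9% of WT cells, and Vcam1, an adhesion molecule for leukocytes, in 36.8% and 54.3% against 6.78% and 22.6%. Itpr2, a receptor that releases calcium from internal stores, had 43.9% and 45.7% in CD8-depleted cells against 15.3% and 11.3% in WT cells. Cpt1b, the muscle form of the enzyme that admits fatty acids to the mitochondrion, had 38.6% and 15.2% in CD8-depleted cells against 0% and 9.68% in WT cells. With a mean WT share under 5%, Cpt1b met the filter on low shares through the CD8-depleted sets, so its call carries no independent weight. Its exons overlap those of the gene model Gm44502, so that its reads may have been divided or set aside in counting. Among the genes that fell, Spry2, an inhibitor of receptor tyrosine kinase signalling, had shares of 7.02% and 8.70% in CD8-depleted cells against 52.5% and 22.6% in WT cells. Rheb, the small GTPase that activates mTORC1, had 36.8% and 19.6% in CD8-depleted cells against 81.4% and 50% in WT cells. For Selenok, a selenoprotein of the endoplasmic reticulum, the shares were 47.4% and 43.5% in CD8-depleted cells and 96.6% and 64.5% in WT cells. In these last 3 genes WT set 1, the deepest set, stood well above WT set 2.

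Ordered by the gap between the closest sets, a choice made after the values were seen and with no test of the order, the widest higher shares included those of 6 genes described here. Pnisr, a serine- and arginine-rich splicing-associated protein, was read in 87.7% and 80.4% of CD8-depleted cells and 38.98% and 46.8% of WT cells (adjusted p = 0.0164 in the 5 to 95% fit). Resf1, a nuclear protein that silences retroelements, had 98.2% and 89.1% in CD8-depleted cells against 61.02% and 59.7% in WT cells, with median levels of 398 and 141 CPM against 21.5 and 15.9 CPM. Hbegf, a ligand of the epidermal growth factor receptor, had 77.2% and 82.6% in CD8-depleted cells against 49.2% and 37.1% in WT cells and missed the threshold (adjusted p = 0.054). Itpr2 and Adamts1, a secreted metalloproteinase with 86.0% and 63.04% against 35.6% and 33.9%, passed. Fn3k, a kinase that removes sugar adducts from proteins, had 71.9% and 71.7% in CD8-depleted cells and 35.6% and 40.3% in WT cells and did not pass (adjusted p = 0.108), and its difference turned to -0.59 points with mitochondrially encoded genes kept.

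On the lower side, Gata4, a transcription factor of the cardiac lineage, was read in 47.4% and 47.8% of CD8-depleted cells and 83.1% and 72.6% of WT cells, which did not pass in the 5 to 95% fit (adjusted p = 0.159). Klf15, a repressor of cardiac hypertrophy, had 21.1% and 19.6% in CD8-depleted cells against 44.1% and 40.3% in WT cells. Mapk14, the p38α kinase, had 40.4% and 39.1% against 66.1% and 62.9%. Bckdhb, a subunit of the branched-chain ketoacid dehydrogenase, had 54.4% and 52.2% in CD8-depleted cells against 77.97% and 75.8% in WT cells, and Acadsb, the next dehydrogenase of the pathway, 59.6% and 47.8% against 88.1% and 80.6%.

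**Figure D4:**
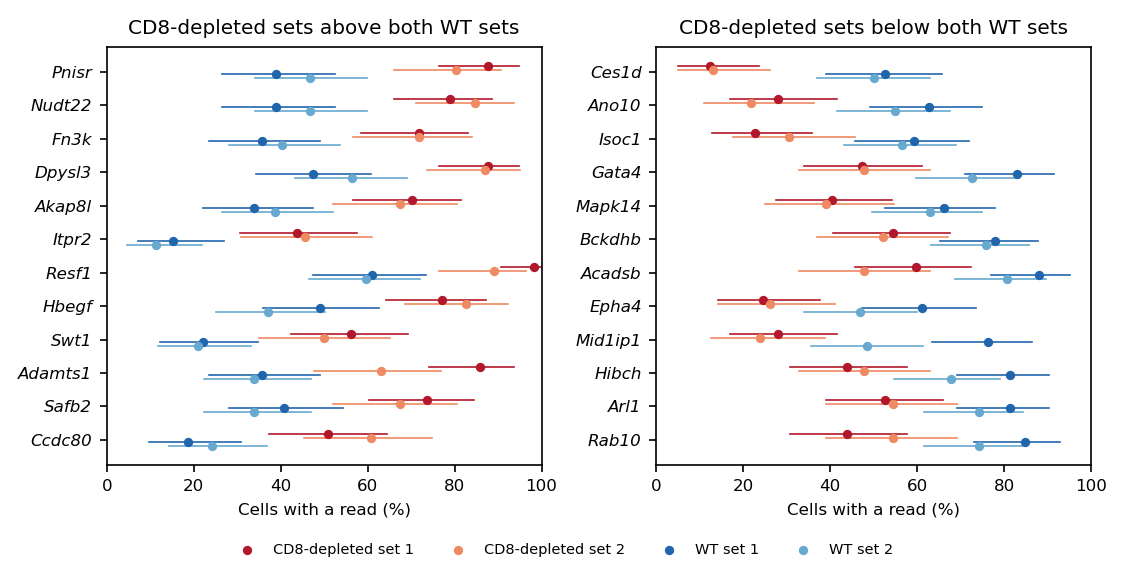
The 12 genes with the widest gap in each direction, with the share of cells with a read (%) as 1 point per set, CD8-depleted sets drawn above WT sets, and exact 95% binomial intervals that cover counting error only. Pnisr lies at 87.7% and 80.4% in the CD8-depleted sets against 38.98% and 46.8% in the WT sets, and Ces1d at 12.3% and 13.04% against 52.5% and 50%.

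The fetal and stress genes were placed high as a list. Of 21 tested members, 8 (38.1%) lay above both WT sets and 0 below both, and the median difference was 3.31 points. The background was 21.8% and 17.3% over all genes, and 11.1% and 9.97% at mean shares of 95 to 100%. Of 18 members tested for the median level, 15 were higher, with a median of 0.79 on the log2(median CPM + 1) scale beside -0.26 over all 3820 genes tested, of which 769 (20.1%) lay above and 1132 (29.6%) below both WT sets by median level. Acta1, the skeletal α-actin of the fetal ventricle, had medians of 11305 and 5588 CPM in the CD8-depleted sets, against 4498 and 3239 CPM in the WT sets. Ankrd1, a stretch-responsive protein of the sarcomere, had 4809 and 3794 CPM in the CD8-depleted sets, against 2217 and 2008 CPM in the WT sets. Atp2a2, the calcium pump of the sarcoplasmic reticulum, lay the other way, with 2899 and 2740 CPM in the CD8-depleted sets against 10213 and 4447 CPM in the WT sets. The adult gene Myh6 was higher as well, with 21880 and 16134 CPM in the CD8-depleted sets, against 8078 and 14499 CPM in the WT sets. A higher median level was thus not confined to fetal genes. By test, Xirp1 passed over all genes and Nppa in the 5 to 95% fit. Nppa, Myh7 and Nppb were picked for the list with earlier results of these data known.

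Lists of energy metabolism differed in where their median levels lay. Of all 3820 genes tested by median level, 2302 were lower and 29.6% lay below both WT sets, with a median of -0.26. In complex I of the respiratory chain 26 of 36 genes were read in every cell, where shares could not differ. By share, 0 members lay above and 0 below both WT sets. In the tricarboxylic acid (TCA) cycle, of which 9 genes were read in every cell, 0 of 25 members lay above and 4 below both WT sets by share, while by median level 23 were lower and 17 of them did not overlap, with a median of -0.78. Cs, citrate synthase, had medians of 758 and 696 CPM in the CD8-depleted sets, against 1626 and 1048 CPM in the WT sets. Sdha, a subunit of succinate dehydrogenase, had 605 and 271 CPM in the CD8-depleted sets against 1382 and 962 CPM in the WT sets. None of the 25 passed a test. In fatty acid oxidation 24 of 28 members were lower by median level, 16 without overlap, with a median of -0.66. The 1 member that passed a test, Cpt1b, was higher in share, the opposite direction, and met the filter through the CD8-depleted sets. Etfdh, which passes electrons of fatty acid oxidation to ubiquinone, had 260 and 190 CPM in the CD8-depleted sets against 604 and 454 CPM in the WT sets, and Pdk4, which restrains glucose oxidation, was read in 71.9% and 56.5% of CD8-depleted cells and 91.5% and 67.7% of WT cells. Complex I and ATP synthase had medians of 0.01 and -0.04.

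By median level the cytosolic ribosome lay above the -0.26 of all genes, and the mitochondrial ribosome lay below it by less. By share, 5 of 78 cytosolic members (6.41%) lay above and 3 (3.85%) below both WT sets. The background was 11.1% and 9.97% for genes with a mean share of 95 to 100%. Rpl14, Rpl24, Rps25, Rps27a and Mrpl12 were among the ceiling calls. All of those calls were lost with the satellite cell left out, at a lowest limma adjusted p of 0.050026. Cytosolic ribosomal proteins were higher by median level in 62 of 76 members, 44 without overlap, with a median of 0.34. Over all 3820 genes tested, 1518 were higher and 20.1% lay above both WT sets. Mitochondrial ribosomal proteins were lower in 52 of 71, 29 without overlap, with a median of -0.44. Of all 3820 genes, 2302 were lower as well and 29.6% lay below both WT sets. By share 17 of 75 mitochondrial members (22.7%) lay below and 6 (8%) above both WT sets. Splicing and nuclear serine- and arginine-rich proteins had 10 of 24 members (41.7%) above and 1 (4.17%) below both WT sets, beside 21.8% and 17.3% over all genes. In the 5 to 95% fit 2 passed, Pnisr and Resf1, the second of which is on the list as a nuclear protein and is not a splicing factor. The list was chosen with earlier results of these data known, so its count and these calls carry no independent weight. Son, a scaffold of nuclear speckles read in every cell, had medians of 539 and 490 CPM in the CD8-depleted sets, against 293 and 332 CPM in the WT sets. Clk1, a kinase of splicing factors, was an exception, with 33.3% and 26.1% against 57.6% and 35.5% of cells.

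Interferon response and antigen presentation genes were mostly rare, and 25 of 44 reached the tested share. Of these, 14 (56%) lay above both WT sets and 0 below, with a median of 7.28 points, and 0 passed the test in either fit. B2m, the light chain of class I molecules, was read in 80.7% and 76.1% of CD8-depleted cells and 71.2% and 40.3% of WT cells. Rnf213, an interferon-induced ubiquitin ligase, had 21.1% and 26.1% against 8.47% and 6.45%. Extracellular matrix genes had 10 of 18 (55.6%) above and 1 (5.56%) below both WT sets, and 1 passed, Mfap5, which was at 0% in both WT sets and so met the filter on low shares through the CD8-depleted sets alone. Sparc, a matrix-binding glycoprotein, was read in 89.5% and 93.5% of CD8-depleted cells and 76.3% and 62.9% of WT cells, and Bgn, a small proteoglycan, in 24.6% and 37.0% against 16.9% and 6.45%. Markers of other cardiac cells were placed alike, since 6 of 13 endothelial markers (46.2%) and 6 of 9 fibroblast markers (66.7%) lay above both WT sets and 0 below. Among these, Vwf, Lum and Postn were under 5% in both WT sets and met the filter through the CD8-depleted sets alone, as Mfap5 did. The summed level of the endothelial markers was 408 and 1663 CPM in the CD8-depleted sets, against 550 and 543 CPM in the WT sets, and that of the fibroblast markers 138 and 461 CPM against 192 and 59.2 CPM, so that CD8-depleted set 2 was highest and the groups overlapped. The part of other cells' RNA in the interferon and matrix values was not tested.

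Among the remaining lists, circadian clock genes had 3 of 19 above and 6 (31.6%) below both WT sets. Nr1d2, a repressor of the clock, was read in 31.6% and 21.7% of CD8-depleted cells and 67.8% and 46.8% of WT cells. Immediate early genes had 5 of 14 (35.7%) above and 1 below, among them Egr1 with 7.02% and 19.6% in CD8-depleted cells against 1.69% and 4.84% in WT cells. Egr1 was under 5% in both WT sets and so met the filter on low shares through the CD8-depleted sets alone. Receptors of repair cytokines and Csf1 were close to the background, with 3 of 12 (25.0%) above and 1 (8.33%) below. Igf1r, the receptor of insulin-like growth factor 1, had 33.3% and 47.8% in CD8-depleted cells and 32.2% and 29.03% in WT cells, and p53 targets had 0 of 15 above and 2 below.

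**Figure D5:**
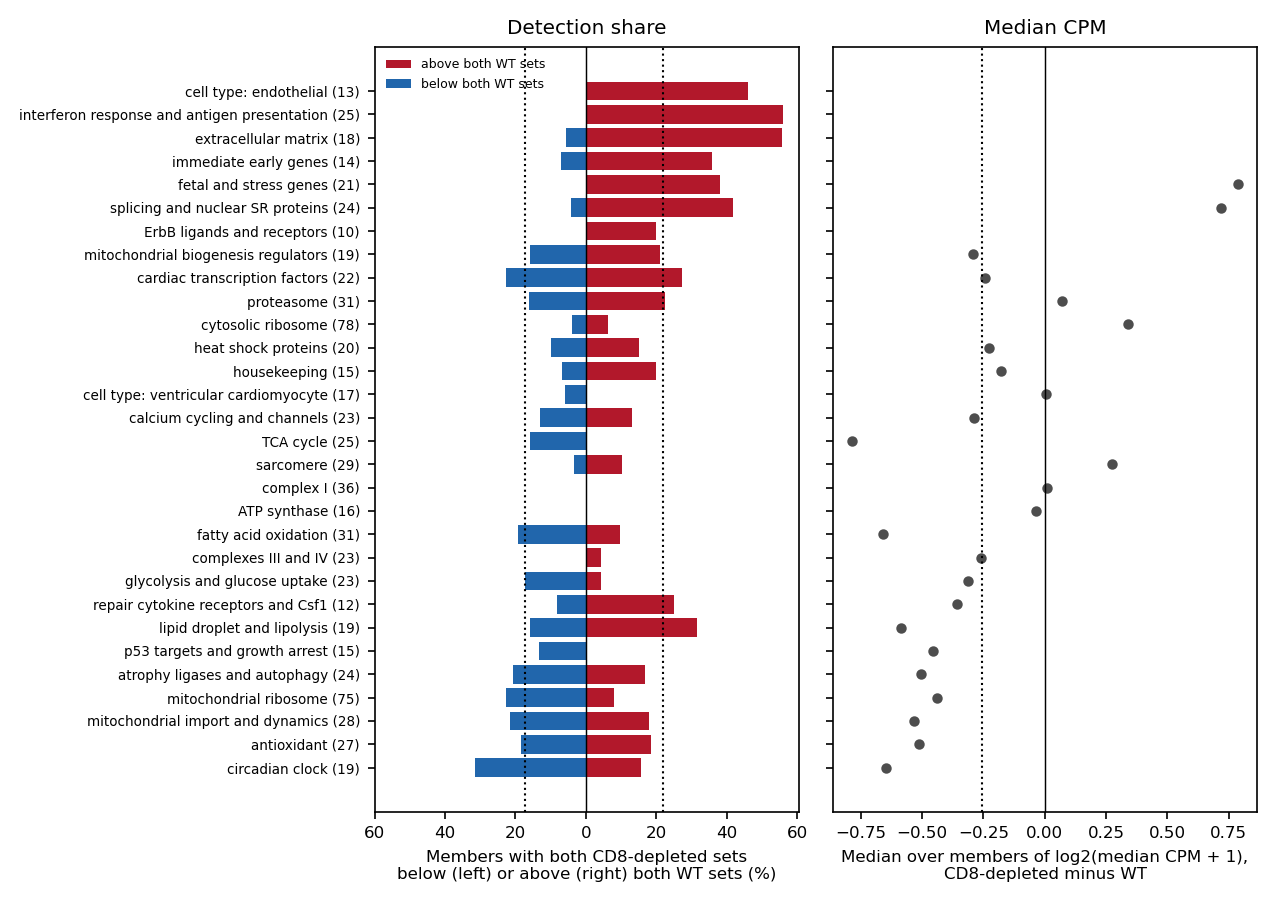
For each list (number of tested genes in parentheses), the left panel gives the percent of members with both CD8-depleted sets above (red, to the right) or below (blue, to the left) both WT sets by share of cells, with dotted lines at 21.8% and 17.3% for all tested genes. The right panel gives the median over members of the CD8-depleted minus WT difference in log2(median CPM + 1), with a dotted line at -0.26 for all tested genes, where fetal and stress genes lie at 0.79 and the TCA cycle at -0.78.

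Levels were also compared without regard to detection. For the median cell, 3820 genes with a mean of medians of at least 5 CPM were tested with limma on log2(median CPM + 1), and 0 passed as higher (0%) and 0 as lower (0%), with 590 at an unadjusted p under 0.05. At the ceiling only the level could differ. Of the 207 genes read in every cell of all 4 sets, 53 lay above and 78 below both WT sets by median level. Over all 3820 genes tested by level, 20.1% lay above and 29.6% below. Of 2005 genes whose summed counts differed at least 2-fold (1 on the log2 scale) in either direction, 1160 had shares without overlap in the same direction. Over all 9506 genes, 21.8% lay above and 17.3% below both WT sets by share, so share and summed level often went together.

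For counts summed over the cells of a set, edgeR's quasi-likelihood test passed 2 genes as higher (0.0177%) and 0 as lower (0%) of 11289, with 1067 at an unadjusted p under 0.05, and DESeq2 passed 84 higher and 59 lower genes on the same sums. The 2 genes were Mfap5 and Nppa. Mfap5, a glycoprotein of elastic microfibrils that was on the fibroblast marker list, was counted 172 and 296 times in the CD8-depleted sets against 12 and 5 times in the deeper WT sets, a log2 difference of 6.68 (SE 0.77, adjusted p = 0.0178) that ranged between 6.00 and 7.18 with 1 set left out. Its summed level was 22.5 and 54.1 CPM in the CD8-depleted sets, against 0.51 and 0.24 CPM in the WT sets. Mfap5 thus met the filter on summed counts through the CD8-depleted sets alone, and this call carries no independent weight. Mfap5 did not pass after thinning (adjusted p = 0.078), with cells of at least 5000 genes (0.64), within 85 to 95% mitochondrial counts (0.59) or with both CD3e-/- sets in the fit (0.80). After thinning, 10 of 57 cells and 9 of 46 cells of the CD8-depleted sets held a read, against 0 of 59 cells and 0 of 62 cells of the WT sets, and without thinning the shares were 16.1% and 22.5% against 5.08% and 4.84%. A count of 0 allows a share of up to 5.08% and 4.84% by the limit of 3 cells of the total, and up to 6.06% and 5.78% by the exact 95% binomial interval. Fbn2, a fibrillin of the same microfibrils, was read in 8.77% and 19.6% of CD8-depleted cells after thinning, against 0% and 0% of WT cells, so both genes met the filter on low shares through the CD8-depleted sets alone and their calls in the 5 to 95% fit carry no independent weight. The other fibroblast markers did not all share this, since Fbln1 was read in 10.5% and 23.9% of CD8-depleted cells and 25.4% and 17.7% of WT cells.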

How the data were processed

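Smart-seq2 libraries were sequenced as paired 51-base reads. Per the labels, the authors' processing used fastp 0.21.0, STAR 2.7.5c and featureCounts (version not given in the sources used here) on mm10, and the authors deposited raw whole-number counts of reads per gene and cell. The paper's methods name another aligner and build for its own analysis. CPM was computed here over nuclear genes, after leaving out 13 mitochondrially encoded genes. Thinning drew 50000 counts per cell once without replacement.

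The readings made per set and gene were the share of cells with a read (limma 3.58.1, trend, arcsine square root), the median CPM (limma, log2 with a pseudocount of 1) and the summed counts (edgeR 4.0.16, TMM, filterByExpr, quasi-likelihood). Estimates are CD8-depleted minus WT, without covariates and with Benjamini-Hochberg adjustment over all tested genes. The main fits left 2 residual degrees of freedom per gene. Prior degrees of freedom from the other genes were added, and these were infinite in the 5 to 95% fit. The cells, genes and lists were chosen with earlier results of these data known. Genes described are Nppa, Myh7, Ces1d and a choice from the calls, the widest share gaps per direction and list members. Not all calls or wide gaps are described, and the 8 widest median gaps per direction are mostly left out.

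Tested on simulated data, summed counts recovered 74% of 16-fold and 3% of 4-fold changes, median CPM 100% and 81%, the share test 0% of 20- and 50-point changes and the 5 to 95% fit 11% and 97%. False calls numbered 3 for summed counts, 5 for median CPM, 0 for the share test and 8 for the 5 to 95% fit. In the simulated shares the spread added between sets was the same for every gene. Intervals are binomial over the cells of a set, so they cover counting error only and leave out the spread between sets. The reads carry no molecular identifiers. No doublet caller was run on these hand-picked cells. Alternatives covered normalization (DESeq2 1.42.0), filters, depth, pseudocount, the replicate block and each set left out.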

Additional observations from a re-analysis of the deposited data

How the results depend on the processing

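Of 1164 values of 53 named genes recomputed under the alternatives, 1158 kept their direction. These genes included ones picked for wide gaps in these same sets, and the alternatives reused the same counts. A kept direction therefore carries little weight. With mitochondrially encoded genes kept, the share difference was -4.82 points for Irf3, -0.59 for Fn3k, -1.47 for Akap8l, -14.1 for Dnttip2 and -1.92 for Srek1, and with cells of at least 5000 genes it was 0.60 points for Htra1. The cause was not tested. The 27 share calls became 0 with all cells, both CD3e-/- sets, no gene filter, 20000 counts, at least 3 reads, a spread no smaller than counting error or the satellite cell left out, 1 with expected shares, 1 with the empirical logit, 14 among cells with 85 to 95% mitochondrial counts, 45 with at least 5000 genes, 60 at 100000 counts, 66 with sets centred, and 0 to 96 with 1 set left out. The 33 calls of the 5 to 95% fit became 0 at 100000 counts, with at least 5000 genes or within 85 to 95% mitochondrial counts, 1 at 20000 counts, 2 with expected shares, 3 with sets centred, 12 without the satellite cell, 380 without thinning, 543 with mitochondrially encoded genes kept, and 2 to 455 with 1 set left out. Nppa passed in 11 of the 15 versions of this fit that tested it and Ces1d in 8 of 16. The 0 median CPM calls became 918 with mitochondrially encoded genes kept (913 lower), 235 after thinning (159 higher), 3 from 20 CPM, 2 with sets centred, 1 for the mean over cells and 0 to 249 with 1 set left out. The 2 calls of summed counts became 143 with DESeq2, 143 with no gene filter, 32 with CD3e-/- set 2 in the fit, 0 with both CD3e-/- sets, with at least 5000 genes, after thinning or within 85 to 95% mitochondrial counts, and 52 to 147 with 1 set left out.

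The set numbers pair no samples by any label, and the differences of set 1 minus set 2 in the 2 groups correlated at -0.0035 for shares and 0.07 for median CPM. With the replicate block the calls were 0 for shares, 56 for the 5 to 95% fit (all 33 among them), 258 for median CPM (66 higher, 192 lower) and 2 for summed counts. Depth limited rare genes: at 50000 counts a gene near 20 CPM is worth about 1 count, and shares of 46 to 62 cells move by about 2 points per cell.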
